A study of Danio rerio with 7 samples.

Results

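Ectomesenchyme is the part of the cranial neural crest (NC) that fills the pharyngeal arches and later forms cartilage, bone and connective tissue of the face. The cells described here are those ectomesenchyme cells in and around the zebrafish first pharyngeal arch that were captured at 20 and at 24 hours post-fertilisation (hpf). A cell was taken as ectomesenchyme when it held at least 1 UMI (unique molecular identifier, 1 captured transcript) of dlx2a and at least 1 of twist1a, and no UMI of gch2, epcam, cdh5, spi1b or myl7, which mark pigment precursors, epithelium, endothelium, myeloid cells and heart muscle. This rule found 255 of 516 cells at 20 hpf and 164 of 388 at 24 hpf, 419 cells of 904 in these libraries and of 2854 in the whole series.

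The 20 hpf and the 24 hpf embryos both carried Tg(sox10:nEOS)w18 in the AB strain, untreated, a transgene in which the sox10 promoter drives a nuclear photoconvertible protein in NC cells. NC cells of the first arch stream were photoconverted in a drawn region, the embryos were dissociated, and cells were sorted and captured with 10x chemistry version 2. The reporter and the drawn region decided which cells could be captured, and each library pooled the cells of several embryos. Each age has 1 library, so there is no replicate and no test: intervals given below are exact 95% intervals that cover counting error only, and a difference between the ages cannot be told apart from one between the libraries.

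Arch ectomesenchyme is patterned along a dorsal to ventral axis before it makes skeleton. Endothelin and Bmp signals from the ventral side turn on hand2 in the most ventral (distal) cells and dlx5a and dlx6a in distal and intermediate cells, while Notch signalling and Nr2f factors act in dorsal cells. Ectomesenchyme of the first arch lacks Hox transcripts, whereas the second and more posterior arches carry Hox genes such as hoxa2b and hoxb2a.

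The label was checked on genes outside the rule, which is not an independent check. Cells with the exclusion genes had been removed, and the comparison cells were chosen for lacking both rule genes. Low pigment, epithelial, endothelial, myeloid and cardiac markers and higher ectomesenchyme markers thus follow in part from the choice of cells. Of 12 ectomesenchyme markers not used to choose the cells, 10 at 20 hpf and 12 at 24 hpf were at a higher level in the chosen cells than in cells with neither dlx2a nor twist1a (175 cells at 20 hpf, 149 at 24 hpf). The exceptions at 20 hpf were hand2 and ednraa. Summed levels of the 4 pigment, 4 neural, 5 endothelial, 5 erythroid, 4 myeloid, 7 cardiac and muscle and 6 endoderm markers were between 0 and 3.33 UMIs per 1000000 (CPM) in the chosen cells of either library. The pigment gene pmela, not among the 4 pigment markers, was above this range at 20 hpf. It was at 11.0 CPM there (56 UMIs in 19 cells) and at 0.437 CPM at 24 hpf. Early NC and keratin transcripts were exceptions. The 4 early NC markers summed to 122 CPM at 20 hpf and 84.3 CPM at 24 hpf, against 409 and 1019 CPM in cells with neither dlx2a nor twist1a. Among them, sox10 was found in 129 chosen cells at 20 hpf and 59 at 24 hpf. krt8 was at 540.2 CPM at 20 hpf and 523 CPM at 24 hpf, and krt18a.1 at 136 and 338 CPM. The epithelial genes krt4, cdh1, cldni and tp63 were each under 4 CPM, against 1563 CPM of krt4 in the cells with neither marker at 24 hpf.

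The chosen cells held 5101757 UMIs at 20 hpf and 2290324 at 24 hpf, with medians of 20210 and 13856 UMIs and 3104 and 2769 genes per cell. Median mitochondrial shares were 1.22% and 1.42%, and median shares of ribosomal protein transcripts 37.0% and 31.7%. No cell barcode of either library occurred in another library of the series. The rule genes themselves had medians of 16 and 14 UMIs for dlx2a and of 29 and 15 UMIs for twist1a. Just inside the rule, 15 cells at 20 hpf and 5 at 24 hpf had a single UMI of one of these genes, and just outside it 17 and 9 cells had dlx2a alone and 14 and 14 had twist1a alone. The exclusion genes removed 27 and 38 cells, of which 23 and 34 held gch2, in most cases (20 and 32 cells) as a single UMI. With each cell thinned to 6000 UMIs before the rule was applied, ectomesenchyme made up 49.9% of cells at 20 hpf (45.5 to 54.3%, 256 of 513 cells) and 46.9% at 24 hpf (41.8 to 52.0%, 179 of 382 cells). These intervals overlap. Without thinning the shares were 49.4% and 42.3%.

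UMIs were summed over the ectomesenchyme cells of each library and expressed as CPM. Of 6232 genes with at least 50 UMIs over the cells of both ages, 364 were at least 2-fold higher at 24 hpf (5.84%) and 135 at least 2-fold lower (2.17%). For 98 of the higher and 31 of the lower genes the whole counting interval lay past 2-fold. The median log2 ratio of all genes tested was 0.16. Scaling by TMM factors multiplied every ratio by 0.838, a shift of -0.25 on the log2 scale. It gave 186 higher and 257 lower genes, so higher genes made up 72.9% of the calls in one scaling and 42.0% in the other. The 40 genes named by the rule of size below were past 2-fold in both, as their choice had fixed. No lower bound among the 20 higher ones was under 5.80, and the TMM factor moves the 20 lower ones further down. As a rough yardstick, 6025 genes passed the minimum both here and between the pair of 18 hpf libraries of the series. The 18 hpf pair differed past 2-fold in 22.6% of them, and the 20 and 24 hpf libraries in 6.94%. One 18 hpf library used a later chemistry, and the pair held 74 and 300 ectomesenchyme cells with 1073223 and 8928526 UMIs. The smaller library leaves few UMIs for a gene near the minimum. The 22.6% thus includes counting error, and the 2 percentages are not on the same footing.

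**Figure D1:**
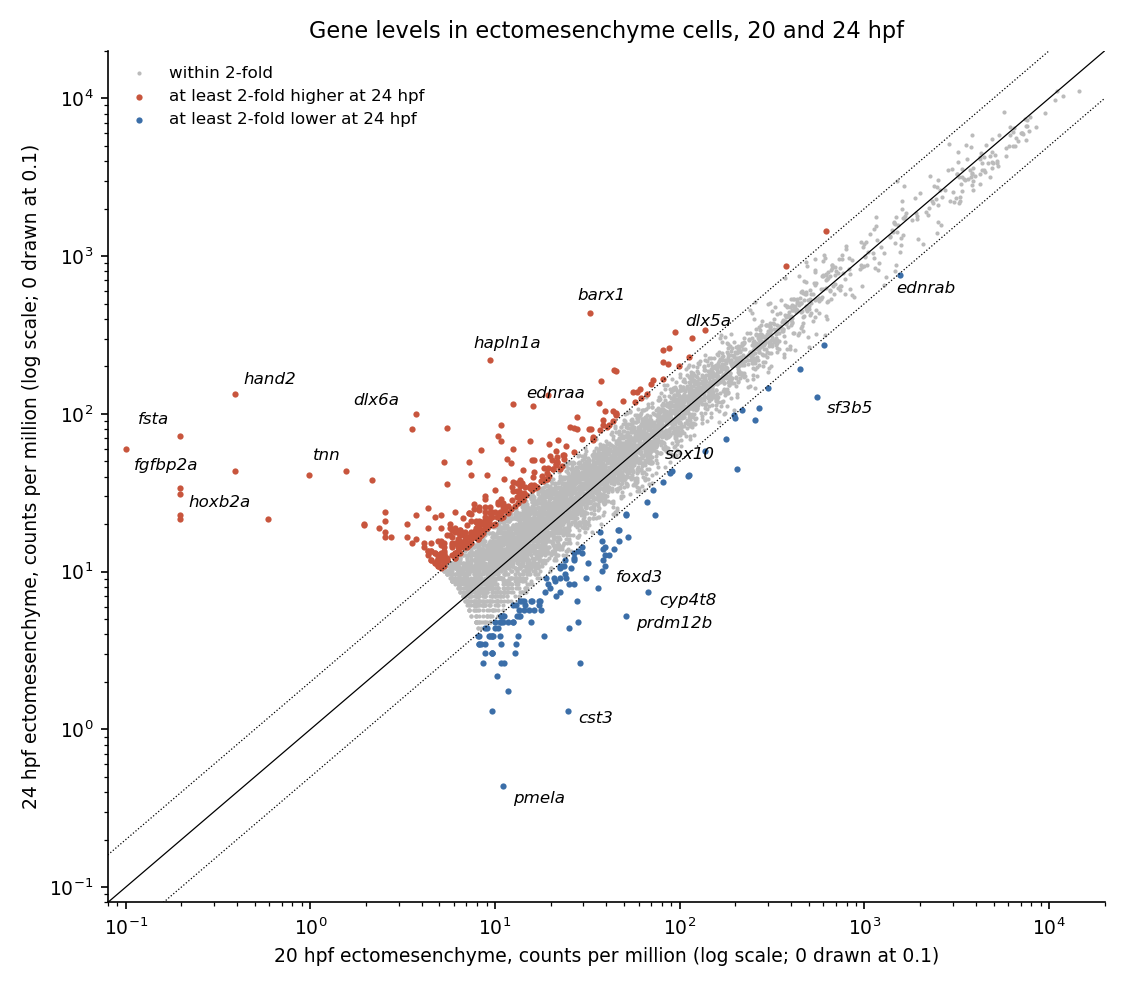
Level of each of 6232 genes in ectomesenchyme cells of the 20 hpf library (x axis) and the 24 hpf library (y axis), in CPM on log axes, with 0 drawn at 0.1. The solid line marks equal levels and the dotted lines 2-fold; the 364 red genes reach furthest from the lines at low 20 hpf levels, where hand2, fsta and fgfbp2a lie, and the 135 blue genes include cst3 and pmela.

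Some genes of the ventral arch, though not all of those tested, were at much higher levels at 24 hpf. hand2, a bHLH transcription factor of the most ventral cells, had 2 UMIs at 20 hpf, a level of 0.392 CPM (0.0475 to 1.42), and 306 UMIs at 24 hpf, 134 CPM (119 to 149). The ratio was 341 with a counting interval of 93.5 to 2827. fgfbp2a, which encodes an Fgf-binding protein, had no UMI at 20 hpf and 137 at 24 hpf, 59.8 CPM (50.2 to 70.7), at least 101.7-fold higher when the 20 hpf library is set at the limit of 3 UMIs. Both genes were named for the lower bound of the ratio, so that the intervals of the ages lie apart follows from the choice. With no UMI at 20 hpf, fgfbp2a passed the count minimum through the 24 hpf library alone.

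The Dlx genes, homeobox genes whose nested expression divides the arch, did not all behave alike. dlx6a stood at 3.72 CPM (2.24 to 5.82) and then at 100.4 CPM (87.9 to 114), a ratio of 27.0 (16.9 to 45.6). dlx1a stood at 10.8 CPM (8.12 to 14.0) and 84.7 CPM (73.2 to 97.5), a ratio of 7.86 (5.80 to 10.8). Smaller ratios were measured for dlx5a, from 94.3 to 328 CPM (3.48, 3.10 to 3.91), and for dlx4b, from 117 to 303 CPM (2.59, 2.32 to 2.90). dlx3b gave a ratio of 1.2 and was not past 2-fold. dlx4a had no UMI at 20 hpf and 31 at 24 hpf, which is under the minimum of 50.

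Of the 22 genes on the list of distal and intermediate arch genes, 15 passed the count minimum. At 24 hpf 10 of these (66.7%, against 5.84% of all genes) were at least 2-fold higher and none lower. This list and the other gene lists were chosen with earlier results of these data known, so no list share is independent support. The median log2 ratio of the 15 was 1.57, against 0.16 for all genes. The others among the 10 were tbx2a (ratio 7.05, 4.97 to 10.2), the Msx genes msx3 (4.46, 2.73 to 7.43), msx2b (2.97, 1.96 to 4.54) and msx1a (2.44, 1.57 to 3.83), which respond to Bmp signals, and ednraa. This list includes ednrab, which was lower. The summed level of the whole distal and intermediate list was 2054 CPM at 20 hpf and 2494 CPM at 24 hpf (ratio 1.21, 1.18 to 1.25). Of the 19 dorsal arch genes, 15 passed and 6 (40%, against 5.84% of all genes) were higher with none lower (median log2 ratio 0.57). These 6 were fsta, emx2, dlx1a, six1a (3.27, 2.52 to 4.26), the Notch ligand gene jag1b (2.81, 1.8 to 4.43) and nr2f1b (2.3, 1.6 to 3.3). Under TMM scaling nr2f1b was not past 2-fold. fsta encodes follistatin, a secreted antagonist of activins and Bmps. It had 1 UMI at 20 hpf and 165 at 24 hpf, 0.196 and 72.0 CPM, a ratio of 368 with an interval of 65.1 to 14604. In the 18 hpf libraries fsta was at 6.52 and 0.448 CPM, so the size of this ratio depends on the low 20 hpf level. For dlx1a (10.8 CPM at 20 hpf) and six1a (19.6 CPM) the 18 hpf libraries lay on either side of the 20 hpf level. They gave 7.45 and 25.9 CPM for dlx1a and 7.45 and 47.7 CPM for six1a. The second 18 hpf library was thus above 20 hpf in both genes. The other nuclear receptor genes of the dorsal list, nr2f1a, nr2f2, nr2f5, nr2f6a and nr2f6b, had ratios between 0.650 and 1.61.

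The leading genes also included barx1 and a few genes of the matrix. barx1, a homeobox gene of arch mesenchyme that holds off joint formation in zebrafish, stood at 32.5 CPM (27.8 to 37.9) at 20 hpf and 437 CPM (410.4 to 465) at 24 hpf, a ratio of 13.4 (11.4 to 15.9). hapln1a, which encodes a link protein of the hyaluronan matrix, stood at 9.41 CPM (6.94 to 12.5) and 218 CPM (199 to 238), a ratio of 23.2 (17.2 to 31.8). tnn, a tenascin, stood at 1.57 and 43.7 CPM (27.8, 13.6 to 66.3), and ccn2b, a matricellular factor, at 0.980 and 41.0 CPM (41.9, 17.3 to 132). Both genes were named for the lower bound of the ratio, so that these intervals lie far above 2 follows from the choice.

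Among the 17 extracellular matrix genes that passed, the median log2 ratio was 0.98 (0.72 under TMM scaling). Of the 17, none was lower and 8 were higher (47.1%, against 5.84% of all genes, and 6 genes under TMM scaling). Fibrillar collagen genes were among the 8 higher genes: col1a1b went from 2.55 to 24.0 CPM (9.42, 5.08 to 18.8) and col1a2 from 12.2 to 48.5 CPM (3.99, 2.90 to 5.53). tgfbi, a secreted adhesion protein, went from 44.9 to 187 CPM (4.16, 3.54 to 4.91). Of 12 cartilage and bone genes that passed the minimum (median log2 ratio 0.19), 2 (16.7%, against 5.84% of all genes) were higher (hapln1a and col2a1b, the latter at 2.18, 1.81 to 2.63, and not past 2-fold under TMM scaling) and 2 (16.7%, against 2.17%) lower (hapln1b and comp). sox9a, a regulator of cartilage fate, had only 6 UMIs at 20 hpf and 1 at 24 hpf. It had 1 UMI (0.932 CPM) in the first 18 hpf library and 104 UMIs (11.6 CPM) in the second. Whether the timeline libraries captured this gene poorly was not tested, so its absence from these cells is not read from the low counts.

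Among mesenchyme regulators, 5 of 14 genes were higher (35.7%, against 5.84% of all genes) and 2 lower (14.3%, against 2.17%). Besides barx1, the bHLH genes twist3 (36.5 and 117 CPM, ratio 3.2, 2.64 to 3.88) and twist1b (26.7 and 80.8 CPM, 3.03, 2.42 to 3.81) and the homeobox gene prrx1b (60.6 and 144 CPM, 2.38, 2.03 to 2.79) were higher, as was foxd1 (2.33, 1.98 to 2.74). Of these, prrx1b and foxd1 were not past 2-fold under TMM scaling. foxc1a (38.0 and 15.7 CPM, 0.413, 0.281 to 0.592) and zeb2a (0.358, 0.227 to 0.543) were lower. Under TMM scaling the list had 3 higher and 3 lower genes, with snai1b (0.447, against 0.534 as CPM) then among the lower ones. prrx1a had a ratio of 1.12. twist1b was at 161 and 28.6 CPM in the 18 hpf libraries, the first of these above both ages.

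**Figure D2:**
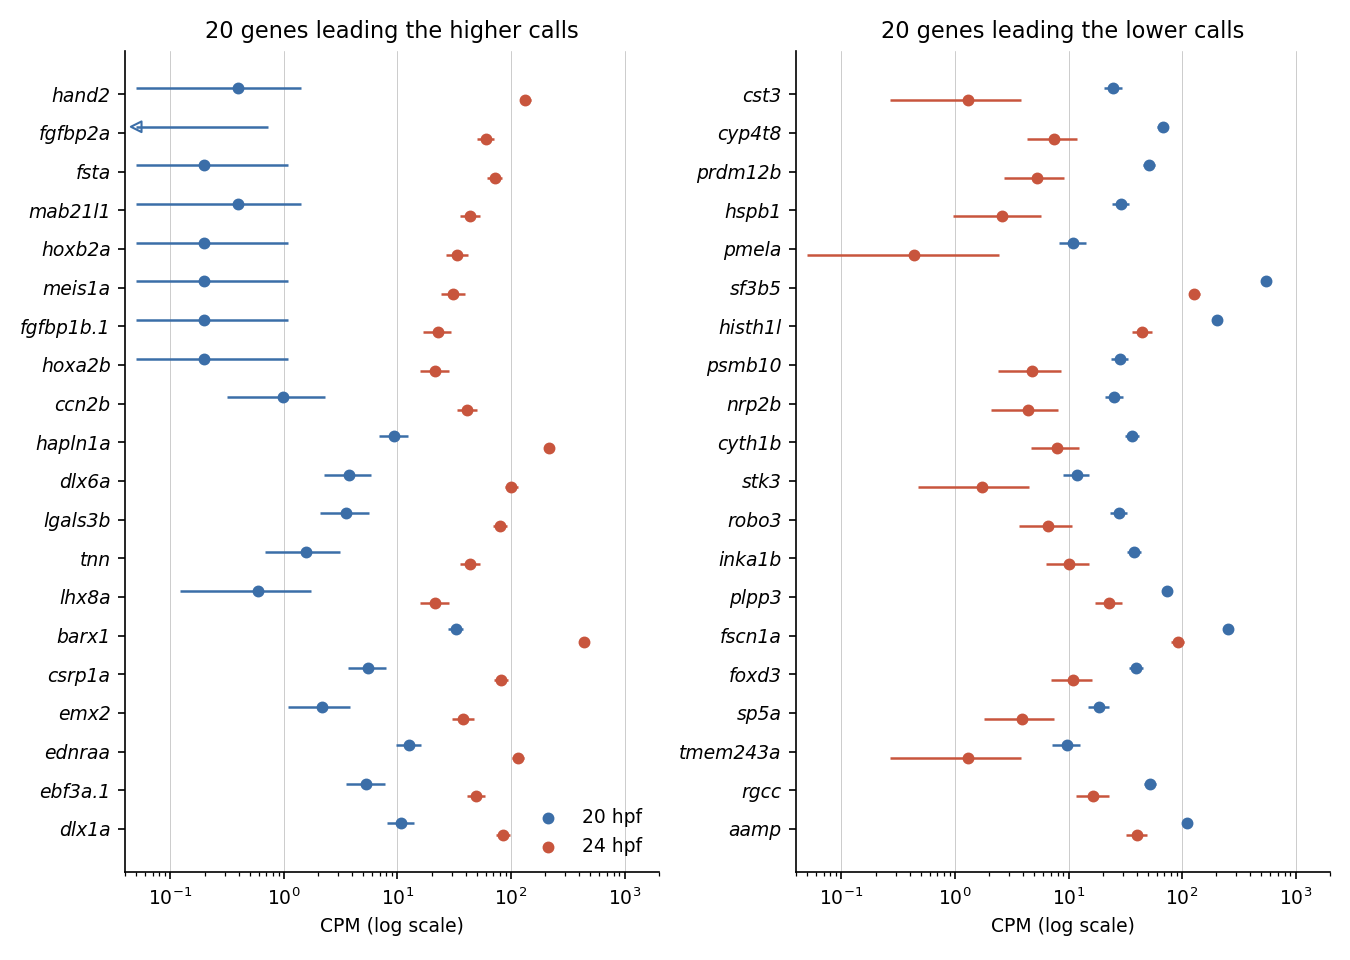
CPM (log axis) at 20 hpf (blue) and 24 hpf (red) of the 20 genes with the highest lower bound and the 20 with the lowest upper bound of the ratio; lines are exact 95% Poisson intervals, drawn no lower than 0.05, and the open triangle marks 0 UMIs. The 40 genes run from hand2 at 0.392 and 134 to aamp at 111 and 40.2. They were chosen by the bounds of the ratio, so that their 2 intervals lie apart follows from the choice.

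Several other leading genes belong to none of these groups, apart from emx2, which is on the dorsal list. mab21l1, a nuclear factor of the Mab-21 family, stood at 0.392 and 43.7 CPM (ratio 111, 30.0 to 932). The LIM homeobox gene lhx8a stood at 0.588 and 21.4 CPM (36.4, 11.7 to 182), the homeobox gene emx2 at 2.16 and 38.0 CPM (17.6, 9.38 to 36.6), and ebf3a.1 at 5.29 and 49.3 CPM (9.32, 6.08 to 14.8). fgfbp1b.1, a further Fgf-binding protein gene, had 1 UMI at 20 hpf and 52 at 24 hpf (116, 19.9 to 4662). lgals3b, a galectin, stood at 3.53 and 80.3 CPM (22.8, 14.0 to 39.3), and csrp1a, a LIM protein of the actin cytoskeleton, at 5.49 and 81.6 CPM (14.9, 9.97 to 23.0). In cells with neither rule gene, lgals3b was at 61.4 and 191 CPM (3.11) and csrp1a at 96.8 and 86.5 CPM. After thinning, lgals3b was found in 32.9% of ectomesenchyme cells at 24 hpf and in 60 of 76 cells that held epcam or spi1b with neither rule gene, so its share is not read as expression.

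Receptors for endothelin, the ventral signal of the arch, differed in opposite directions. ednraa stood at 12.5 CPM (9.66 to 16) at 20 hpf and 115 CPM (102 to 130) at 24 hpf, a ratio of 9.19 (6.97 to 12.3). ednrab stood at 1277 CPM (1246 to 1308) and 655 CPM (622 to 689), a ratio of 0.513 (0.485 to 0.543), just short of the 2-fold limit and past it (0.430) under TMM scaling. In cells with neither rule gene the ratios were 1.11 for ednraa and 0.61 for ednrab.

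This contrast was looked for in other pairs of genes with matching names after these values had been seen. Pairs were formed by name from genes that share a stem and end in a and b, and 380 pairs had both genes over the minimum. Some of these pairs, such as sdha with sdhb, are different subunits of a complex, so the counts are not of duplicated genes alone. In 318 pairs neither gene was past 2-fold, in 55 pairs 1 gene was, in 3 both were in the same direction, and in 4 they were past 2-fold in opposite directions. Of all genes tested, 5.84% were higher and 2.17% lower. The pair counts were not compared with pairs drawn at random, so no excess among pairs is read from them. The 4 opposite pairs were hapln1a (23.2) with hapln1b (0.366), vasna (6.93) with vasnb (0.476), rarab (2.55) with raraa (0.380), both retinoic acid receptors, and tmem243b (2.37) with tmem243a (0.136). A further gap of at least 4-fold between partners, 12 pairs in all, was seen for example in six4a (10.2) with six4b (0.549), tbx2a (7.05) with tbx2b (1.04) and col1a1b (9.42) with col1a1a (1.61). Where partners are near-identical copies, reads could have been split between them in counting, which was not tested.

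On the signalling, receptor and guidance lists the share of higher genes lay between 5.26% (Wnt) and 33.3% (retinoic acid, and growth factor receptors), against 5.84% of all genes, and the median log2 ratio between 0.12 (Wnt) and 0.75 (guidance), against 0.16. These lists are short, so each share rests on a few genes. Of 14 Bmp genes 3 were higher and none lower: nog2, a secreted Bmp antagonist, at 10.4 and 72.5 CPM (6.98, 5.09 to 9.69), and the receptor genes bmpr1ba (5.51, 3.74 to 8.26) and bmpr1ab (2.29, 1.42 to 3.7), the last not past 2-fold under TMM scaling. Of 10 genes of Fgf response, fgf3 (3.25, 2.1 to 5.08) and etv4 (2.56, 1.48 to 4.45) were higher. Of 19 Wnt targets and receptors, the receptor gene fzd8a was higher (11.6 and 52.0 CPM, 4.49, 3.26 to 6.25) and the target gene sp5a lower (18.4 and 3.93 CPM, 0.213, 0.0946 to 0.422). Of 12 Notch genes, jag1b and hey2 (4.34, 2.43 to 7.99) were higher, and of 15 guidance and adhesion genes 4 were higher (2 under TMM scaling) and 2 lower, the higher ones including efnb2a (3.26, 2.59 to 4.1) and pcdh18a (3.44, 2.77 to 4.29). Of 6 retinoic acid genes that passed the minimum, rarab and the binding protein gene crabp2b (2.73, 2.09 to 3.59) were higher and raraa lower, and of 9 such growth factor receptor genes ednraa, fgfrl1a (2.82, 1.7 to 4.72) and acvr1l (2.27, 1.53 to 3.37, not past 2-fold under TMM scaling) were higher. hhip was the 1 of 4 such Hedgehog genes past 2-fold (2.62, 1.62 to 4.27), and neither SoxC gene that passed the minimum was.

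Genes of the cell cycle were nearly all within 2-fold, as were most genes tested, of which 5.84% were higher and 2.17% lower. None of 36 S phase genes was past 2-fold in either direction (median log2 ratio -0.06), and 1 of 37 G2 and M phase genes, aspm, was higher (2.02, 1.72 to 2.38; median log2 ratio 0.22). Under TMM scaling 4 S phase genes were lower, aspm was not past 2-fold and the G2 and M median was -0.03. The p53 response list had 1 of 7 genes (14.3%) higher, cdkn1a (13.5 and 32.3 CPM, 2.39, 1.70 to 3.37). Levels of cdkn1a were above both values in the 18 hpf libraries, at 83.9 and 106.5 CPM, and at 11.9 CPM at 30 hpf. The list of immediate early and stress genes had 1 of 21 (4.76%) lower, hspb1. Each of these shares rests on 1 gene.

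Some genes of early NC and the pigment gene pmela were at lower levels at 24 hpf. foxd3, a transcription factor of early NC, stood at 39.4 CPM (34.1 to 45.2) and 10.9 CPM (7.06 to 16.1), a ratio of 0.277 (0.175 to 0.421), and it was found in 38 cells at 20 hpf and 8 at 24 hpf. At 24 hpf 1 cell held 48% of its UMIs. Of the 10 early NC genes that passed, 4 (40%, against 2.17% of all genes) were lower: foxd3, inka1a, inka1b and cxcr4b. The cadherin gene cdh11 was the 1 higher gene (10%, against 5.84%), at 71.3 and 163 CPM (2.29, 1.98 to 2.65). It was not past 2-fold under TMM scaling. The median log2 ratio of these 10 was -0.64, while the summed level of the whole early NC list was 2968 CPM at 20 hpf and 3182 CPM at 24 hpf (ratio 1.07, 1.04 to 1.1). sox10 itself, whose promoter drives the reporter, was at 71.2 and 66.4 CPM, a ratio of 0.933. pmela, a melanosome protein gene, had 56 UMIs at 20 hpf in 19 cells and 1 at 24 hpf, a ratio of 0.0398 (0.000990 to 0.231). At 20 hpf 1 cell held 32.1% of these UMIs. Of the 5 pigment genes that passed the minimum, pmela was the 1 past 2-fold (20%, against 2.17% of all genes lower), so this share rests on 1 gene. The others, impdh1b, paics, gart and atic, had ratios between 0.630 and 0.978.

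The lower genes also included prdm12b, a PR domain gene (51.2 and 5.24 CPM, 0.102, 0.0522 to 0.182), which came from 34 cells at 20 hpf and 3 at 24 hpf, and cyp4t8, a cytochrome P450 gene (67.6 and 7.42 CPM, 0.11, 0.0632 to 0.178), from 147 and 16 cells. hspb1, a small heat shock protein gene, stood at 28.8 and 2.62 CPM (0.0909, 0.0328 to 0.203), and nrp2b, a co-receptor for semaphorins, at 25.3 and 4.37 CPM (0.173, 0.0809 to 0.328). plpp3, a lipid phosphatase gene, stood at 73.5 and 22.7 CPM (0.309, 0.227 to 0.414), cyth1b at 36.3 and 7.86 CPM (0.217), rgcc at 52.3 and 16.6 CPM (0.317) and tmem243a at 9.60 and 1.31 CPM (0.136).

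Some of the lower genes were also at lower levels at 24 hpf in cells that are not ectomesenchyme, by ratios that were in some cases close and in others apart, and the difference between the cell sets was not tested. sf3b5, a subunit of the splicing machinery, stood at 550.0 CPM (529.8 to 571) and 128 CPM (114 to 144) in ectomesenchyme, a ratio of 0.233 (0.206 to 0.263), and its ratio in cells with neither rule gene was 0.292. The ratios in ectomesenchyme and in those cells were 0.0530 and 0.0768 for the protease inhibitor gene cst3, 0.219 and 0.372 for the linker histone gene histh1l, 0.170 and 0.176 for the proteasome subunit gene psmb10, 0.149 and 0.473 for the Hippo kinase gene stk3, 0.237 and 0.450 for robo3, 0.265 and 0.121 for inka1b, 0.357 and 0.386 for the actin-bundling gene fscn1a, and 0.361 and 0.455 for aamp. Over all calls with at least 50 UMIs in cells with neither rule gene, 35 of 99 lower genes (35.4%) and 51 of 220 higher genes (23.2%) were past 2-fold in the same direction there, against backgrounds of 6.16% lower and 6.42% higher among all genes tested in those cells. Which of these values go with age and which with the library cannot be told apart.

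Cells with hand2 were nearly absent at 20 hpf and present as a minority at 24 hpf. With each cell thinned to 6000 UMIs, hand2 was found in 1 of 254 cells at 20 hpf (0.394%, 0.00997 to 2.17%) and in 31 of 164 at 24 hpf (18.9%, 13.2 to 25.7%). In cells with epcam or spi1b and neither rule gene, used below as background, it was found in 0 of 83 and 1 of 76 cells. Their median depths were 17003 and 11388 UMIs. They are not known to lack the genes compared: those with epcam held 0 and 38 UMIs of barx1 and 17 and 15 of meis1a. Whether these are stray transcripts or expression by those cells was not tested. Without thinning, 2 of 255 and 37 of 164 ectomesenchyme cells held hand2, and all 37 also held dlx5a or dlx6a.

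The share of cells with dlx5a or dlx6a but no hand2 was 26.8% (21.4 to 32.7%) at 20 hpf and 27.4% (20.8 to 34.9%) at 24 hpf after thinning, with intervals that overlap almost entirely, against 1 of 83 and 2 of 76 background cells. The order of the ages turned with depth: the shares were 39.6% and 31.7% without thinning, and 21.2% and 32.3% with cells thinned to 3000 UMIs, so no order is read from them. Cells with none of the 3 genes made up 72.8% (66.9 to 78.2%) and 53.7% (45.7 to 61.5%). barx1 was found in 6.69% (3.95 to 10.5%) and 50% (42.1 to 57.9%) of cells, with 0 of 83 and 10 of 76 in the background.

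**Figure D3:**
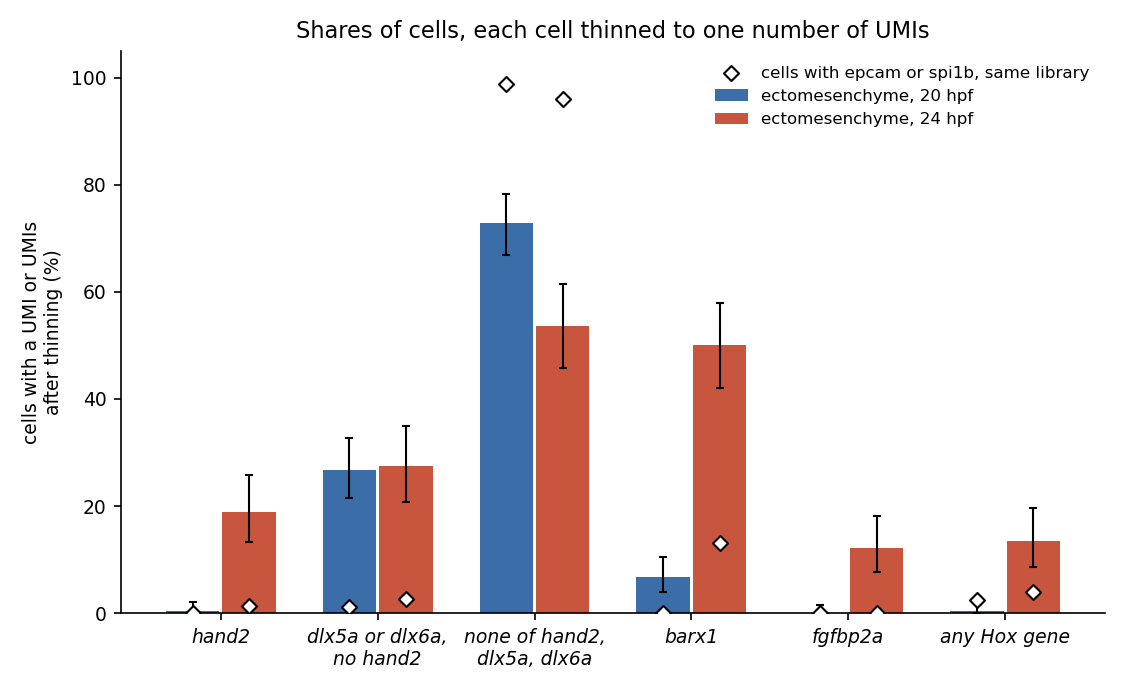
Percent of ectomesenchyme cells at 20 hpf (blue) and 24 hpf (red) with UMIs of each gene or set after thinning to 6000 UMIs per cell, with exact 95% binomial intervals; diamonds give the same share among cells of that library with epcam or spi1b and neither rule gene. hand2 goes from 0.394 to 18.9% and barx1 from 6.69 to 50%, whereas dlx5a or dlx6a without hand2 is at 26.8 and 27.4% at this depth.

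Hox transcripts, which first arch ectomesenchyme lacks, were found in 1 of 255 ectomesenchyme cells at 20 hpf and 24 of 164 at 24 hpf. After thinning the shares were 0.394% (0.00997 to 2.17%) and 13.4% (8.60 to 19.6%), with 2 of 83 and 3 of 76 in the background cells. hoxb2a (1 and 77 UMIs), hoxa2b (1 and 49 UMIs) and meis1a, a homeobox cofactor of Hox proteins (1 and 71 UMIs), were all among the genes with the largest ratios. Of the 24 cells with Hox transcripts at 24 hpf, 10 also held hand2. In the 30 hpf library 37 of 70 ectomesenchyme cells held a Hox transcript. Such transcripts were also captured before 20 hpf. hoxa2b was at 15.4 CPM (6.2 to 31.8) at 14 hpf and at 9.32 (4.47 to 17.1) and 4.03 CPM (2.82 to 5.58) in the 18 hpf libraries, against 0.196 CPM (0.00496 to 1.09) at 20 hpf. meis1a was at 5.59 (2.05 to 12.2) and 4.26 CPM (3.01 to 5.84) in the 18 hpf libraries, against the same 0.196 CPM at 20 hpf. In hoxa2b and meis1a the 20 hpf library thus stood below both 18 hpf libraries, with intervals apart. For hoxb2a the intervals overlapped: it was at 1.86 (0.226 to 6.73) and 1.79 CPM (1.02 to 2.91) in the 18 hpf libraries. At 20 hpf hoxb2a was at 0.196 CPM (0.00496 to 1.09).

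Leaving out the cells with Hox transcripts gave 344 higher and 142 lower genes of 6082, with 298 and 114 of them shared with the calls over all cells. hoxb2a and hoxa2b were then at 0 by construction, and meis1a had no UMI at 24 hpf (ratio 0, from 1 UMI at 20 hpf). The other 37 of the 40 leading genes stayed past 2-fold in the same direction.

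Cells without hand2 and without Hox transcripts, 252 at 20 hpf and 113 at 24 hpf, showed much of the difference on their own. In these cells barx1 was at 31.9 and 255 CPM (7.99, 6.64 to 9.66), hapln1a at 9.30 and 137 CPM (14.8, 10.7 to 20.7), ednraa at 12.7 and 132 CPM (10.5, 7.87 to 14.1) and dlx1a at 10.7 and 49.2 CPM (4.6, 3.21 to 6.63). dlx6a had a ratio of 11.6 (6.88 to 20.4), while dlx5a (1.93, 1.66 to 2.24) and dlx4b (1.96, 1.72 to 2.24) were no longer past 2-fold. Of all 5911 genes that passed in these cells, 306 were higher. Over the distal and intermediate list, 3 of 12 genes that passed were higher, with a median log2 ratio of 0.54 against 1.57 over all cells. The dorsal list kept 6 higher genes of 14 (0.50), and the matrix list had 9 of 15 (1.06).

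At 24 hpf the cells with hand2 differed from the others in more than hand2. Among cells without Hox transcripts, the 27 with hand2 and the 113 without were compared, as sets chosen by that gene within 1 library. dlx6a was at 366 CPM with hand2 and 43.5 CPM without (ratio 8.42, 6.23 to 11.5), dlx5a at 955 and 182 CPM (5.26, 4.48 to 6.18), and barx1 at 955 and 255 CPM (3.75, 3.24 to 4.35). fsta (7.28, 4.78 to 11.2), mab21l1 (7.87, 4.01 to 16), msx1a (5.67, 2.79 to 11.7), nog2 (5.01, 3.45 to 7.27), dlx1a (3.26, 2.27 to 4.65) and fgfbp2a (3.18, 1.73 to 5.74) were higher with hand2 as well. Both fsta and dlx1a, listed as dorsal genes, were at higher levels in the cells with the ventral marker.

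The opposite set of genes was higher in cells without hand2. lhx8a had 48 UMIs in those cells and none in the cells with hand2, emx2 had 80 and 1 (0.0567, 0.00142 to 0.325) and tnn 95 and 2 (0.0955, 0.0114 to 0.355). ednrab (0.420, 0.342 to 0.512), the EMT factor gene snai1a (0.425, 0.250 to 0.681) and prrx1b (0.486, 0.314 to 0.724) were lower with hand2. The proliferation marker mki67 was at 132 CPM with hand2 and 223 CPM without (0.591, 0.425 to 0.806). All 3 of lhx8a, emx2 and tnn were higher at 24 hpf than at 20 hpf in cells without hand2 and Hox, with ratios of 51.0 (16.4 to 256), 23.2 (12.3 to 48.3) and 37.8 (18.4 to 90.1).

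**Figure D4:**
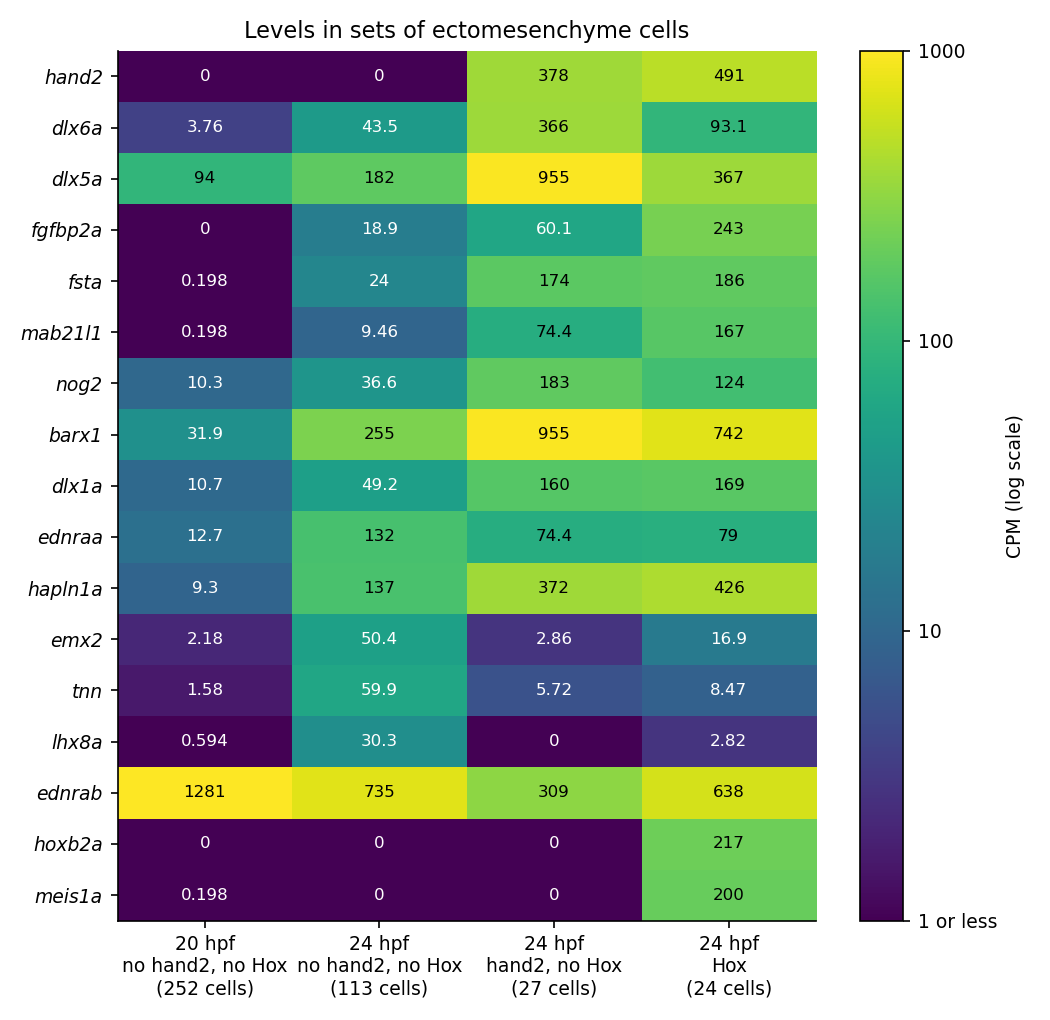
Levels in CPM (printed in each field, coloured on a log scale) of 17 genes in 4 sets of ectomesenchyme cells: without hand2 and Hox transcripts at 20 hpf (252 cells) and 24 hpf (113 cells), with hand2 but no Hox at 24 hpf (27 cells) and with Hox at 24 hpf (24 cells, 10 of them with hand2). dlx6a is at 3.76, 43.5, 366 and 93.1, whereas emx2, tnn and lhx8a are highest in the 24 hpf cells without hand2 and Hox.

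The other libraries placed these values in a longer series, with 39 ectomesenchyme cells at 14 hpf, 74 at 18 hpf, 300 in the second 18 hpf library and 70 at 30 hpf. hand2 was at 4.66 CPM (1.51 to 10.9) at 18 hpf and 0.336 CPM in the second 18 hpf library, and at 286 CPM (253 to 323) at 30 hpf. fsta was at 6.52 (2.62 to 13.4) and 0.448 CPM in these 18 hpf libraries, and lgals3b at 11.2 (5.78 to 19.5) and 2.69 CPM. In hand2, fsta and lgals3b the 20 hpf library stood below the first 18 hpf library, with intervals apart. Its intervals overlapped those of the second 18 hpf library. barx1 was at 0.932 and 5.04 CPM in the 18 hpf libraries and at 370 CPM (332 to 411) at 30 hpf. dlx6a was at 0 and 1.68 CPM at 18 hpf and 172 CPM at 30 hpf, hapln1a at 359 CPM and ednraa at 102 CPM at 30 hpf. ednrab was at 1405 and 1626 CPM at 18 hpf and 206 CPM at 30 hpf, and foxd3 at 116 and 87.8 CPM at 18 hpf and without a UMI at 30 hpf. sox10 was at 663 and 767 CPM in the 18 hpf libraries, before 71.2 CPM at 20 hpf and 72.7 CPM at 30 hpf, so its large difference lay before 20 hpf. dlx4a, with no UMI at 20 hpf, was at 13.5 CPM at 24 hpf and 371 CPM at 30 hpf. Some leading genes that were higher at 24 than at 20 hpf were lower again at 30 hpf, with intervals apart. fgfbp1b.1 was at 22.7 CPM at 24 hpf and had no UMI at 30 hpf, where the interval of a count of 0 reaches 4.00 CPM. csrp1a was at 81.6 CPM (70.4 to 94.2) and 31.5 CPM (21.1 to 45.2), fsta at 72.0 CPM (61.5 to 83.9) and 44.5 CPM (31.9 to 60.3), and dlx1a at 84.7 CPM (73.2 to 97.5) and 51.0 CPM (37.5 to 67.8).

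**Figure D5:**
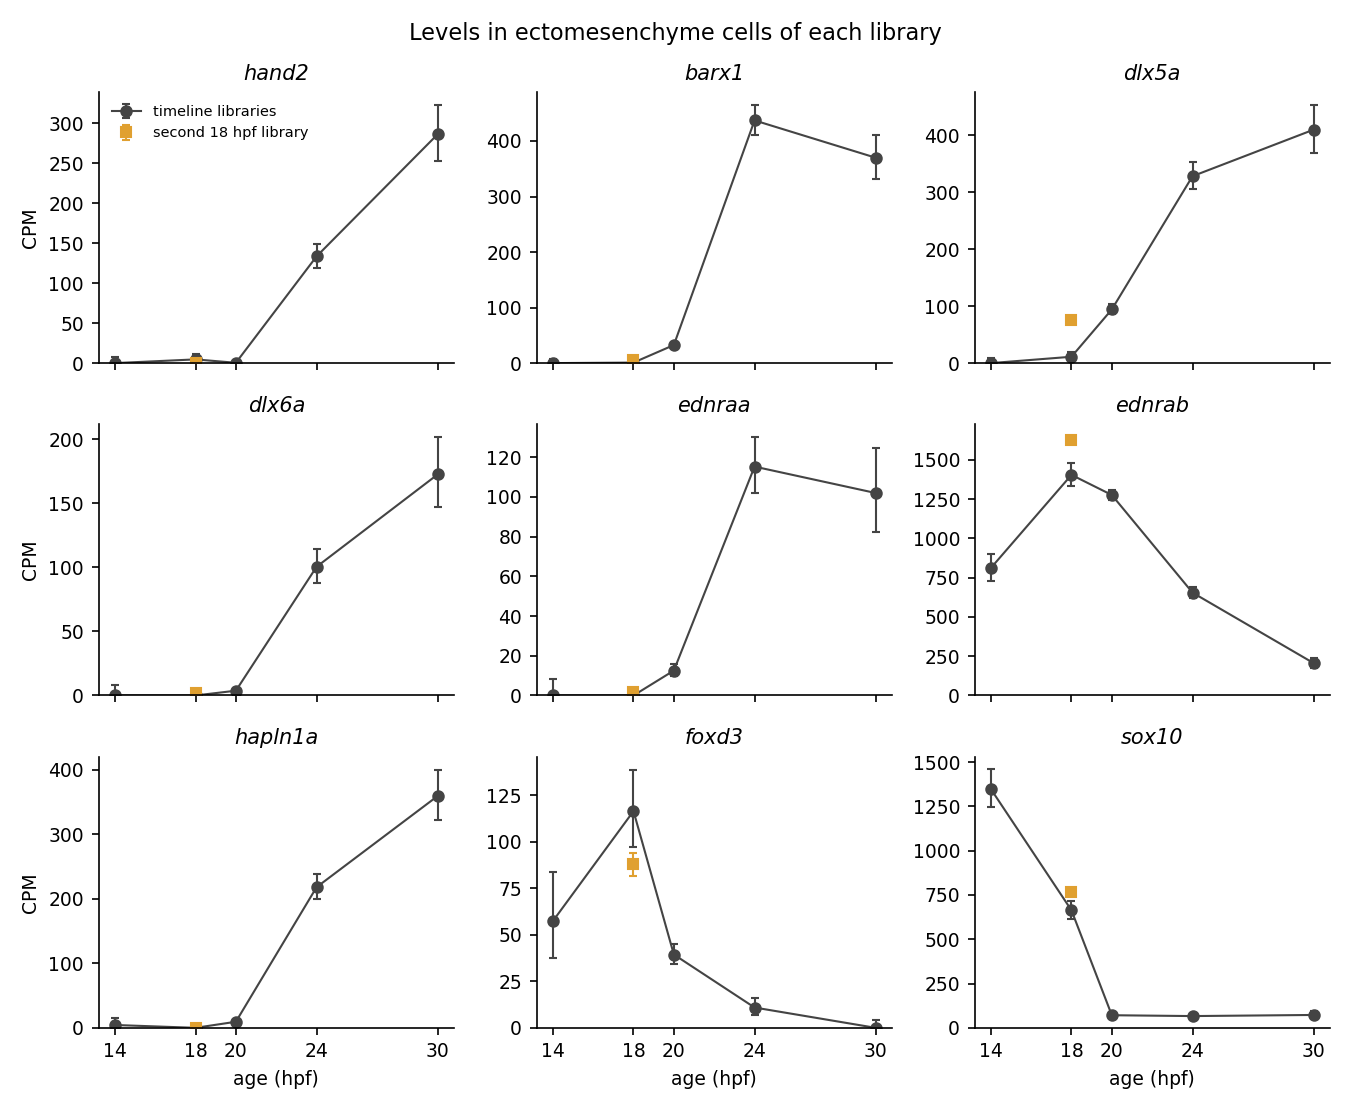
CPM of 9 genes in ectomesenchyme cells of each library from 14 to 30 hpf (x axis, age in hpf), with exact 95% Poisson intervals; orange squares are the 18 hpf library of later chemistry. hand2, barx1, dlx6a, ednraa and hapln1a are near 0 up to 18 hpf and high at 24 and 30 hpf, ednrab and foxd3 go down from 18 hpf, and sox10 is at 71.2 and 66.4 at 20 and 24 hpf.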

How the data were processed

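The deposited tables held raw UMI counts per gene and cell, which the authors made with Cell Ranger (version not given in the sources used here) on GRCz11 and aggregated over the 6 timeline libraries. Whether aggregation subsampled reads is not given. The authors had removed cells of low quality, and no cell was removed here. The number at the end of each cell name gave the library. Members and gene lists were chosen with earlier results of these data known. Counts were summed over cells per library and scaled to CPM, without a statistical test. Ratios carry exact conditional binomial, levels exact Poisson and shares exact Clopper-Pearson intervals of 95% (scipy 1.17.1). The named genes were the 20 with the highest lower bound and the 20 with the lowest upper bound of the ratio, among genes with at least 50 UMIs and outside the rule, together with genes of the fixed lists. Shares were compared after each cell was thinned to 6000 UMIs (seed 1), which left out 1 ectomesenchyme cell at 20 hpf and none at 24 hpf. Doublets were called with Scrublet (scanpy 1.11.5) and kept: 0 of 516 and 1 of 388 cells were called, none of them ectomesenchyme, a share so low that the caller cannot be taken to have worked. TMM and median of ratios factors came from edgeR 4.0.16. The steps were tested on simulated data. Alternatives were other scalings, minimums, membership rules and thinning depths.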

Additional observations from a re-analysis of the deposited data

Results flagged for a closer look

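For 6 leading genes the ratio of 24 over 20 hpf in ectomesenchyme ran against that in cells of the same libraries with neither dlx2a nor twist1a, where the counting interval lay wholly on the other side of 1. The difference between the cell sets was not tested, since each age has 1 library. The other cells are a mixture of cell types, and their marker sums differed between 20 and 24 hpf. Endothelial markers summed to 201 and 31.8 CPM, epithelial ones to 3483 and 7293 CPM and early NC ones to 409 and 1019 CPM. Whether the ratios there follow which cell types were captured was not tested. hand2 had a ratio of 341 in ectomesenchyme and 0.577 (0.463 to 0.714) in the other cells. The lower genes were higher there: prdm12b at 3.06 (2.08 to 4.56) against 0.102, pmela at 1.81 (1.58 to 2.07) against 0.0398, foxd3 at 2.1 (1.69 to 2.62) against 0.277, tmem243a at 1.33 (1.12 to 1.57) against 0.136 and rgcc at 1.35 (1.08 to 1.68) against 0.317.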

How the results depend on the processing

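Counts of higher and lower genes moved by over 1.5 times with the scaling and the count minimum: 186 and 257 with TMM factors, 193 and 252 with median of ratios factors, 761 and 289 with at least 20 UMIs, 81 and 40 with at least 200 UMIs, and 3440 and 2339 with no filter. Under the other membership rules, with each cell weighing the same, and (chosen after seeing the data) without cells with hand2 or Hox, they lay between 306 and 390 for higher genes and between 129 and 156 for lower genes. No gene moved from one direction's calls to the other's. meis1a reversed to a ratio of 0 without Hox cells and without hand2 or Hox cells, where it had 1 UMI at 20 hpf and none at 24 hpf. The share of ectomesenchyme was 43.0% at 20 hpf with cells thinned to 3000 UMIs, and 54.7% and 52.1% with no exclusion genes. With cells thinned to 3000 UMIs, hand2 was in 0% and 11.6% of cells, a Hox gene in 6.71% at 24 hpf, and dlx5a or dlx6a without hand2 in 21.2% and 32.3%, against 39.6% and 31.7% without thinning. Removing called doublets or (chosen after seeing the data) cells of more than 2 times the median depth removed 0 ectomesenchyme cells. Only cells with hand2 could not be compared, since the 20 hpf library has 2. No paired analysis was possible because each age has 1 library. Low counts at 20 hpf limit the ratios of hand2, fsta and the Hox genes to wide intervals.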
